A study of Homo sapiens with 31 samples.

Results

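The region described here is the P2RY12 to P2RY14 receptor cluster on human chromosome 3 and its binding by the oncogenic transcription factor EVI1 and the corepressor CTBP2. It holds 5 genes, P2RY12, P2RY13, P2RY14, GPR171 and MED12L, and was taken as these genes with 50 kb on either side, chr3:150753073-151204860 in hg19. The cluster was chosen by its measured CTBP2 peaks, with the ranks of the peak at the P2RY14 promoter and its values with and without dox already known, so those values are given as a description and carry no test. Across 13 peak lists the region held 183 of 533140 peaks. Merged wherever they overlapped, these gave 40 sites of the 131683 in all lists together, numbered 1 to 40 along the plus strand. Just inside the edges of the region, site 1 began 2.55 kb from the left edge and had peaks in 3 lists with fold enrichments of 6.14 to 7.75, and site 40 ended 10.4 kb from the right edge with 1 peak of 4.78. The nearest sites outside lay 109 kb before the region, with peaks in 8 lists of 4.98 to 10.2, and 52.1 kb after it, with peaks in 2 lists of 4.33 and 6.18.

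The study used chromatin immunoprecipitation with sequencing (ChIP-seq) in myeloid leukemia cell lines with a rearranged 3q26. It asked where EVI1 and CTBP2 bind and how a peptide that competes for CTBP2 changes this. Of its 31 samples, 13 had peak lists that were used, and the others are inputs or were not analysed here. Unmodified, untreated MUTZ3 cells gave 1 CTBP2 library from singly crosslinked chromatin and 1 EVI1 library from chromatin doubly crosslinked with disuccinimidyl glutarate (DSG) and formaldehyde. MUTZ3 cells with retroviral 4× PLASS, a mutated control peptide, gave 2 CTBP2 libraries, and MOLM1 cells that carry a dox-inducible short hairpin against EVI1 but received no dox gave 1 CTBP2 library. For these 3 libraries the sample labels and a sample table of the study differ on whether DSG was used. A MUTZ3 line with a lentiviral, dox-inducible 4× PLDLS, which repeats the CTBP2-binding motif of EVI1, gave 2 CTBP2 and 2 EVI1 libraries after 72 h with dox and 2 of each without, all crosslinked with DSG. The labels give 1 input for the dox cells and 1 for the untreated cells, so libraries of both targets share inputs. All groups are established cell lines, no source used here says whether replicates came from separate cultures, and the spread between them may be technical.

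P2Y receptors are G protein-coupled receptors for extracellular nucleotides, which cells release on stress and injury. P2RY12 and P2RY13 respond to ADP, P2RY12 being the platelet receptor blocked by clopidogrel and a marker of microglia. P2RY14 responds to UDP-glucose and related UDP-sugars and is expressed on hematopoietic stem and progenitor cells, and GPR171 is a related receptor for the neuropeptide BigLEN. MED12L is a paralog of MED12, a subunit of the kinase module through which Mediator, the bridge between transcription factors and RNA polymerase II, is regulated. EVI1 is a zinc finger transcription factor encoded by MECOM that is activated in leukemias with a rearranged 3q26, and CTBP2 is a corepressor that does not itself read DNA sequence and is brought to chromatin by factors such as EVI1. On hg19 the cluster lies between GATA2 and MECOM, the genes near the ends of the inversion of chromosome 3 that MUTZ3 carries.

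Read numbers are not part of the lists, so the depth of a library is unknown and differences in peak number cannot be told apart from differences in depth. The lists held from 6688 to 72214 peaks. The fold enrichment of a peak, the authors' ratio of ChIP signal at its summit over the local background, was used to rank the peaks of a list, and a position in the list is given as the rank in percent of the list, so that a small percentage is a strong peak. In 2 libraries the P2RY14 promoter peak was near the foot of the list, namely CTBP2 untreated replicate 1 and EVI1 untreated replicate 2 of the inducible line. Results that rest on them are given with and without them. With 2 libraries per group, the smallest p that an exact two-sided permutation test could reach is 0.333, and no test was run.

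The reference sequence at the P2RY14 promoter is shown because this was the strongest CTBP2 site of the cluster in 6 of the 8 CTBP2 lists. All sequences come from the hg19 genome, are written 5′ to 3′ and carry in capitals any match to 6 motifs searched on both strands: AGATAA and ACAAGATA, parts of the motif of the first zinc finger domain of EVI1, GATGAG, part of that of the second, GGAAGT of the ETS type, TGTGGT of the RUNX type and CACCTG of the ZEB type. The first run is the 200 bases upstream of the P2RY14 5′ end, chr3:150996331-150996530 on the minus strand, the strand of the gene. The second is the stretch of 30 bases around the match nearest the CTBP2 summit, chr3:150996203-150996232 on the plus strand, in the first exon of P2RY14.
P2RY14 promoter: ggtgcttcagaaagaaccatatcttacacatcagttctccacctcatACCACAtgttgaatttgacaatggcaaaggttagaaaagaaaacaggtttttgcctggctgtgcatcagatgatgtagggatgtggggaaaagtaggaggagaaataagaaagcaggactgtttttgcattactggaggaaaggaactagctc
P2RY14 summit: tgacagaaACCACAAGATAgtgggtccctc
The capitals of the second run hold ACAAGATA and, overlapping it, TGTGGT on the opposite strand. The match to ACAAGATA began 25 bp before the summit of the unmodified CTBP2 peak. Among the 16810 windows of 300 bp around the CTBP2 summits of unmodified MUTZ3, 198 or 1.18% held ACAAGATA. TGTGGT was in 28.5% of them and GATGAG, which also had 1 match in the P2RY14 window, in 19.6%. The P2RY14 window had none of AGATAA (17.3% of windows), GGAAGT (42.5%) and CACCTG (24%). Its GC content was 42.7%, and 87.7% of the windows had as much or more.

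For comparison, 100 bases around the CTBP2 summit are shown for 4 sites that were called in 10 to 12 lists and lie outside promoters, in introns of MED12L. They are, on the plus strand, site 12 at chr3:150853638-150853737, site 14 at chr3:150863976-150864075, site 16 at chr3:150887903-150888002 and site 17 at chr3:150889074-150889173. The summits are those of unmodified cells, except for site 14, where the summit of 4× PLASS replicate 2 was taken.
site 12: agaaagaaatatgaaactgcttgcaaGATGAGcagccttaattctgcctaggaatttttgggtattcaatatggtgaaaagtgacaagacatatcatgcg
site 14: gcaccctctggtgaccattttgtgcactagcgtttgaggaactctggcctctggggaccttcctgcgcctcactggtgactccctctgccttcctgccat
site 16: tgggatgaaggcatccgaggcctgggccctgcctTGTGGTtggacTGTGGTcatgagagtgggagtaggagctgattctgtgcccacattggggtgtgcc
site 17: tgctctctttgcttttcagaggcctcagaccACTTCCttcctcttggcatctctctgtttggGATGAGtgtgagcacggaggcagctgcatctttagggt
None of the other 8 sites described in full had ACAAGATA within 150 bp of the summit. Site 16 held TGTGGT 3 times and GGAAGT once in that window, site 17 held GATGAG and GGAAGT, site 12 held GATGAG, and site 14 held none of the 6 motifs. A match describes the reference sequence and not a bound site.

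The sites were spread over MED12L, whose body spans the receptor genes. MED12L (ENSG00000144893) runs on the plus strand from 150803073 to 151154860, and GPR171 (ENSG00000174946), P2RY14 (ENSG00000174944), P2RY13 (ENSG00000181631) and P2RY12 (ENSG00000169313) lie inside it on the minus strand. Of the 40 sites, 32 had their summit in an intron of MED12L, 2 in one of its exons and 6 outside the gene. The body of P2RY14, from 150929905 to 150996330, held 8 sites and that of P2RY12, from 151054631 to 151102541, held 5. GPR171, from 150915619 to 150921003, held 1 site. P2RY13, from 151044100 to 151047337, held none, and the nearest site lay 11330 bp from its 5′ end.

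**Figure D1:**
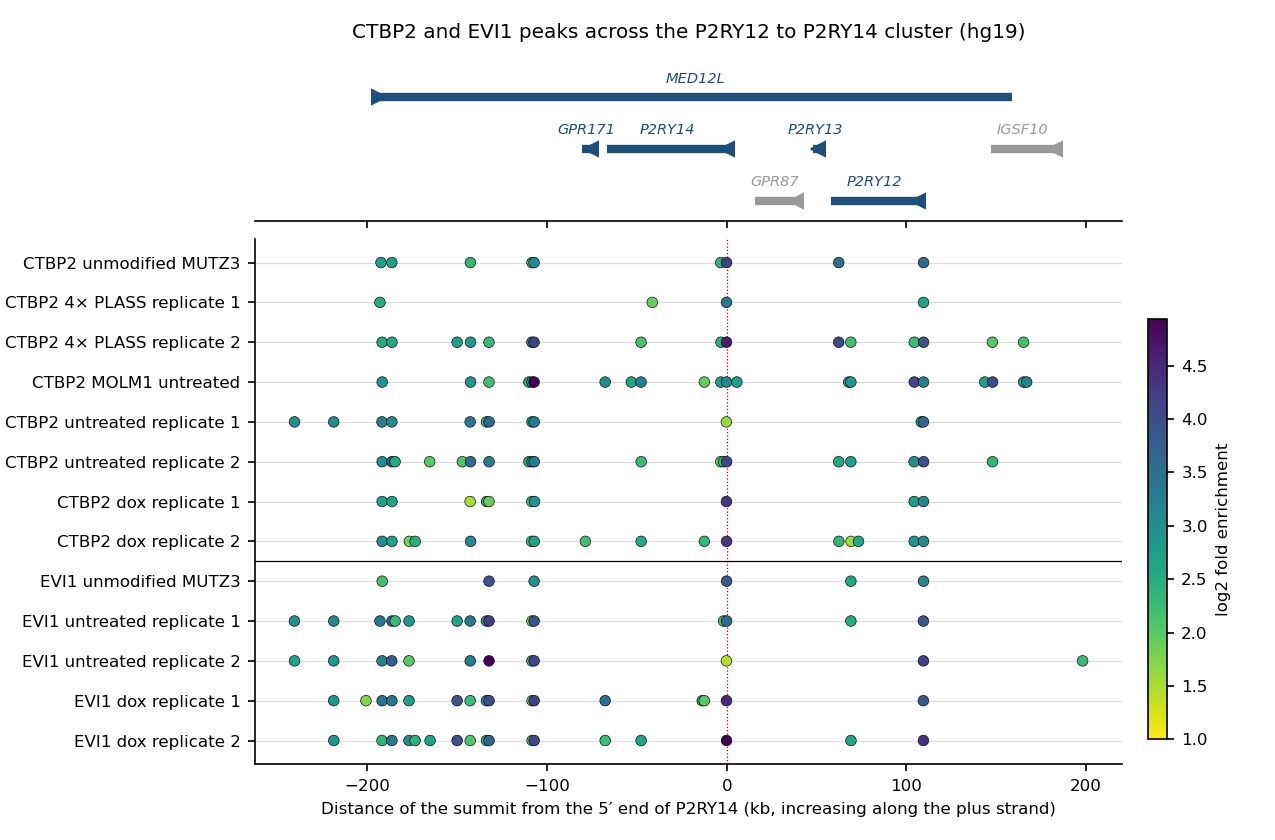
Position of every peak summit in the cluster, in kb from the 5′ end of P2RY14 along the plus strand, for each of the 13 lists, with the 5 member genes in blue and 2 neighbouring genes in grey above them (arrowheads mark 5′ ends). Point color gives log2 fold enrichment, "untreated" and "dox" without a cell line are the inducible 4× PLDLS cells, and the column of points at 0 kb is the P2RY14 promoter, called in all 13 lists.

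Of the 40 sites, 13 were called in 1 list (32.5%, with 46.1% of all 131683 sites), 18 in 2 to 6 lists, 6 in 7 to 12 lists and 3 in all 13. The 3 sites found in every list were the MED12L promoter (site 4), the P2RY14 promoter (site 27) and site 35, which lies 3306 bp upstream of the 5′ end of P2RY12, in an exon of MED12L and 109619 bp from the P2RY14 promoter summit. In all lists together, 3065 sites were called in every one. Both proteins were called at 21 of the 40 sites (52.5%, with 44.6% of all sites), CTBP2 alone at 16 (40%, with 32.7%) and EVI1 alone at 3 (7.5%, with 22.6%), with 8 lists for CTBP2 and 5 for EVI1. No EVI1 list of MOLM1 or 4× PLASS cells was used, so a site called only in those cells counts as CTBP2 alone. In the cluster these were sites 20, 22, 28, 30, 36, 38 and 39, and the shares over all sites hold such sites too. Peaks of the cluster numbered 5 to 23 per CTBP2 list and 6 to 17 per EVI1 list, and their density per Mb was 1.15 to 5.03 times that of the same list over the genome. The genome density used full chromosome lengths, gaps included. The region was chosen by its CTBP2 peaks, so these ratios only describe it.

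P2RY14, the UDP-glucose receptor of progenitor cells, had the strongest CTBP2 peak of the cluster at its promoter in 6 of 8 lists. The site runs from 150995891 to 150996706, across the first exon and the 5′ end of P2RY14 in an intron of MED12L, and the summits of all 13 lists fell within 153 bp of each other. In unmodified MUTZ3, the CTBP2 peak had a fold enrichment of 18.6 and ranked 167 of 16836 (0.992%). In 4× PLASS cells it was 10.3 in replicate 1 (308 of 6688, 4.61%) and 24.3 in replicate 2 (179 of 31310, 0.572%). In each of these 3 lists it was the first peak of the cluster.

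The MOLM1 library differed from this order. There the P2RY14 promoter had a fold enrichment of 8.57 and ranked 20365 of 64569 (31.5%), the seventh of 23 peaks in the cluster. The first peak of the cluster in MOLM1 was site 17 in a MED12L intron, with 30.2 (534 of 64569, 0.827%). In MUTZ3, site 17 had 8.49 in unmodified cells (13.3%) and 17.5 in 4× PLASS replicate 2 (584 of 31310, 1.87%), where it was second in the cluster, and no peak in 4× PLASS replicate 1. In the 4 inducible libraries it had 6.23 to 10.1 (13.8% to 33.1%). MOLM1 has 1 library and so no replicate error, and the labels give unmodified MUTZ3 another crosslink.

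In the inducible line without dox, the replicates differed at P2RY14 more than at nearly any other site. The CTBP2 peak had a fold enrichment of 3.13 in replicate 1, where it ranked 60554 of 62232 (97.3%) and was the weakest of the 12 cluster peaks, and 17.3 in replicate 2, where it ranked 1799 of 56526 (3.18%) and was the strongest of 19. With dox it was 19.7 in replicate 1 (94 of 24588, 0.382%) and 19.9 in replicate 2 (153 of 23878, 0.641%), the first of the cluster in both. Without dox the 2 values lay far apart, and with dox they were nearly equal and above both.

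EVI1 also had a low and a high untreated library at this promoter, the low one being replicate 2. The labels do not say whether libraries of the targets with the same number belong together, so the numbers of CTBP2 and EVI1 are not matched here. The EVI1 peak at the P2RY14 promoter was 11.9 in untreated replicate 1 (7008 of 51389, 13.6%), where it was the fifth of 16 cluster peaks, and 2.70 in untreated replicate 2 (71777 of 72214, 99.4%), where it was the last of 12. With dox it was 22.6 in replicate 1 (1736 of 53806, 3.23%) and 30.3 in replicate 2 (532 of 47599, 1.12%), and it led the cluster in both. In unmodified MUTZ3 it was 14.4 (1291 of 21505, 6.0%), behind site 14 at 14.9. Thus, of the 13 lists, the untreated library with low CTBP2 and that with low EVI1 at this promoter were the 2 in which the peak fell in the last 5% of the list.

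**Figure D2:**
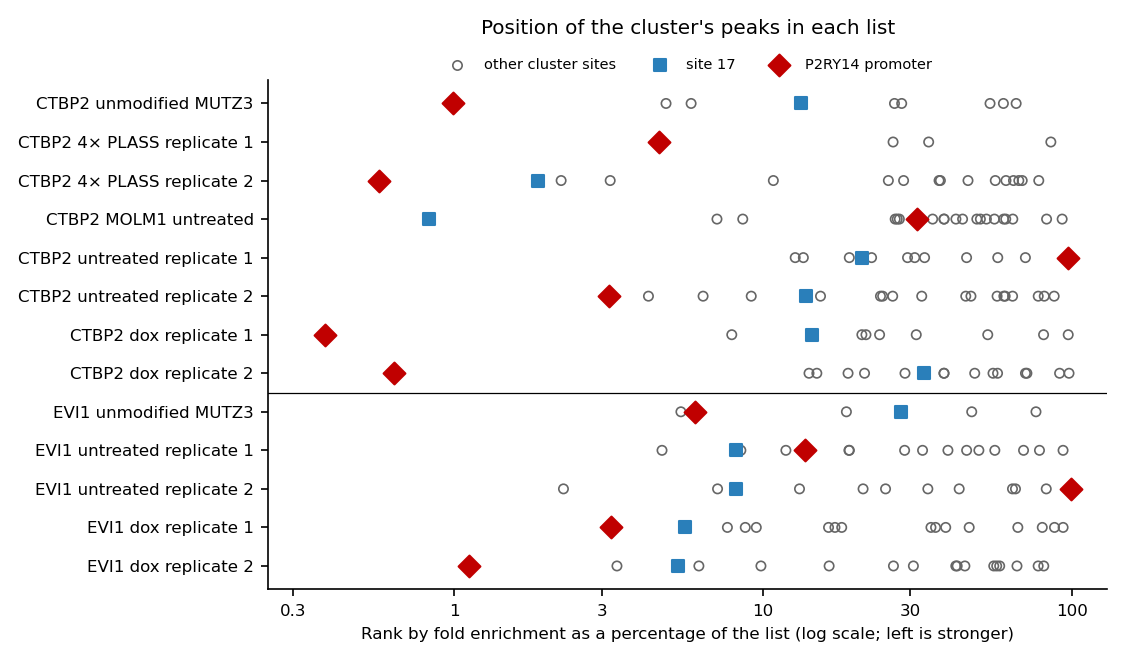
Rank of each cluster site by fold enrichment, in percent of its list on a log scale, for the 13 lists, where smaller values are stronger peaks. The P2RY14 promoter (red diamonds) leads the cluster at 0.382% to 4.61% in 6 CTBP2 lists, falls to 97.3% in CTBP2 untreated replicate 1 and to 99.4% in EVI1 untreated replicate 2, and in MOLM1 lies far behind site 17 (blue square, 0.827%).

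Over the genome, few sites differed this much between untreated replicates. The site was picked with these values known, and the libraries and directions counted below are those seen at it. The shares describe its place among all sites and do not measure chance. The log2 fold enrichment at P2RY14 was lower by 2.47 in CTBP2 replicate 1 than in replicate 2, and 6 of the 37227 sites called in both CTBP2 libraries (0.0161%) differed by as much in either direction, P2RY14 included. For EVI1 it was higher by 2.14 in replicate 1 than in replicate 2, a size reached at 22 of 40449 sites (0.0544%). Both drops together, each of at least 1 on the log2 scale and in these libraries, occurred at 208 of the 30116 sites called in all 4 untreated libraries, and at 5 sites where each was at least 2. In the cluster, P2RY14 was the 1 site of 8 with both drops. At the other 7 cluster sites called in both CTBP2 libraries the difference reached at most 0.77 in size, and likewise at the other 10 of EVI1. Over the 30116 sites, the replicate 1 minus replicate 2 differences of the targets had a correlation of −0.40, with inputs shared. Peaks were also narrow in the low libraries, at 308 bp for CTBP2 and 249 bp for EVI1, against 380.0 to 816 bp in the other 11 lists.

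MED12L, the paralog of MED12, had a broad promoter site, called in all 13 lists but in none of them first in the cluster. Site 4 extends over 2414 bp, from 150802822 to 150805235, and takes in several annotated MED12L 5′ ends. Its CTBP2 fold enrichment was 6.64 in unmodified MUTZ3, 5.66 and 5.86 in 4× PLASS, 7.66 in MOLM1, 9.69 and 7.99 in untreated inducible cells, and 6.52 and 7.62 with dox. For EVI1 it was 4.55 in unmodified cells, 10.2 and 9.05 without dox, and 10.7 and 5.25 with dox. CTBP2 values at this promoter ran from 5.66 to 9.69 over all 8 lists, and list positions from 18.9% to 38.6%. The summits of the 13 lists spread over 1271 bp, so the values do not all describe the same position.

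The other receptor promoters were covered thinly. P2RY12, the ADP receptor of platelets, had no peak within 1 kb of the 5′ end of its main transcript in any list. Site 29, 26 bp upstream of the start of a shorter annotated P2RY12 transcript inside the gene (P2RY12-202, retained intron), had CTBP2 peaks in 4 lists and no EVI1 peak. They were 11.4 in unmodified MUTZ3 (985 of 16836, 5.85%), 16.6 in 4× PLASS replicate 2 (2.22%), 5.85 in untreated replicate 2 (45.3%) and 5.04 in dox replicate 2 (55.6%). The site was in the first 6% of the unmodified and of 1 of the 2 4× PLASS lists, near mid-list in 1 untreated and 1 dox library, and had no peak in the other 4 CTBP2 lists. Site 33, 1857 bp into the gene from the main 5′ end and picked after its values were seen, likewise had CTBP2 peaks in 5 lists and no EVI1 peak, with its highest fold enrichment, 16.9 (7.09%), in MOLM1. GPR171 had 1 peak near a 5′ end, in CTBP2 dox replicate 2, with a fold enrichment of 4.48 (71.5%). That end belongs to an annotated transcript that starts inside the gene (GPR171-203). No list had a peak within 1 kb of the outer GPR171 5′ ends, at 150920988 and 150921003. P2RY13 had no peak near its 5′ end. Among all 20176 protein-coding genes, the share with a peak within 1 kb of a 5′ end ran from 9.65% in 4× PLASS replicate 1 to 69.8% in EVI1 untreated replicate 2.

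Between the promoters, the most called sites were those in MED12L introns and site 35 upstream of P2RY12. Site 35 was called in every list. Its CTBP2 fold enrichment was 12 in unmodified MUTZ3, 6.12 and 14.8 in 4× PLASS, 9.21 in MOLM1, 12.6 and 15.9 without dox, and 8.78 and 8.21 with dox. EVI1 there had 9.12 in unmodified cells, 14.7 and 18.6 without dox, and 14.3 and 20.5 with dox. In CTBP2 untreated replicate 1, where P2RY14 was last, site 35 was the first peak of the cluster.

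Site 14 stood first for EVI1 in 3 lists and lower for CTBP2. Its EVI1 fold enrichment was the highest of the cluster in unmodified MUTZ3 (14.9) and in both untreated libraries (18.9 and 30.6), whereas the CTBP2 peak was absent from the unmodified list and from 4× PLASS replicate 1 and reached 4.92 in 4× PLASS replicate 2, 4.58 in MOLM1, and 12.3 and 9.67 in untreated inducible cells. Site 17 was called in all lists but 4× PLASS replicate 1. In the inducible line its EVI1 values were 14.9 and 17.2 without dox and 18 and 17 with dox. The neighbouring site 16 was weak for EVI1, at 3.45 to 4.72 in the 4 inducible libraries, and 4.48 to 9.54 for CTBP2 in 7 lists.

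**Figure D3:**
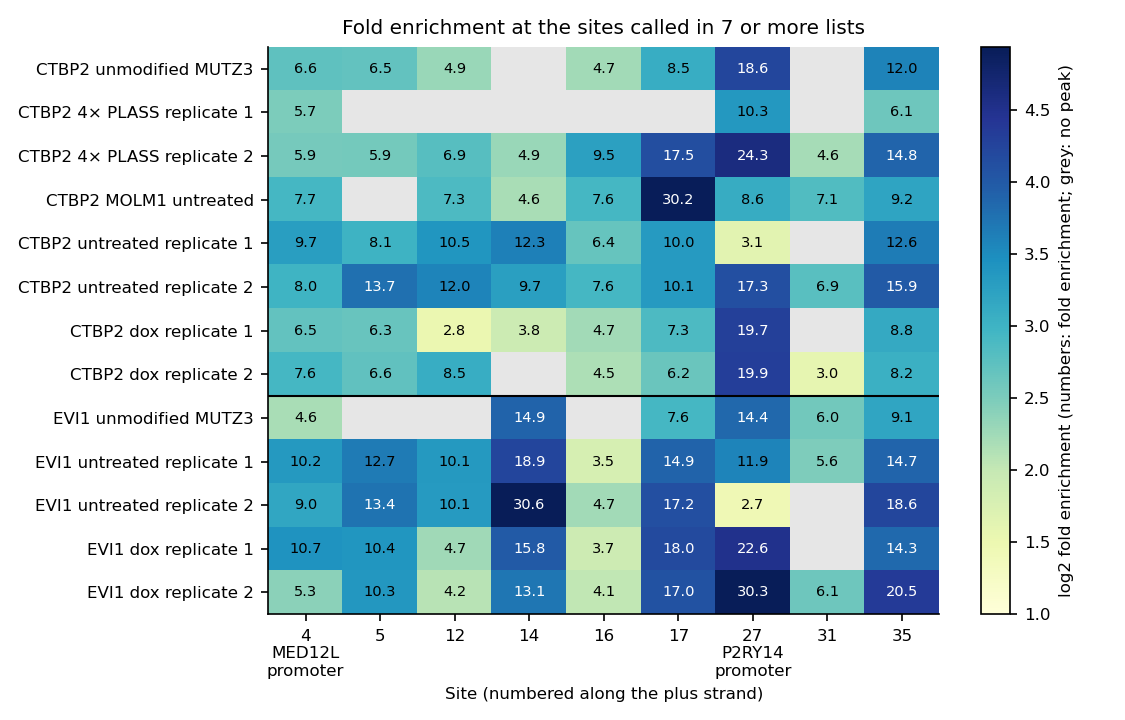
Fold enrichment at the 9 sites called in at least 7 lists (columns, in order along the plus strand) in the 13 lists (rows, CTBP2 above the line and EVI1 below), with color on a log2 scale and grey where no peak was called. P2RY14 has the highest CTBP2 value of its row in 6 of 8 rows, site 17 has it in MOLM1 (30.2), and site 14 has the highest EVI1 value in the unmodified and both untreated libraries.

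Overlap with EVI1 was compared next, since the study asks whether CTBP2 sits where EVI1 does. In unmodified MUTZ3, 4 of the 10 cluster CTBP2 peaks overlapped an EVI1 peak (40%), against 54.5% of the whole CTBP2 list. The 4 were the peaks at the P2RY14 promoter and sites 17 and 35 and the weaker of 2 peaks in the MED12L promoter site (6.20). The stronger one there (6.64) did not overlap an EVI1 peak. The median fold enrichment of the 4 was 10.2 and that of the other 6 was 5.83. At the P2RY14 promoter the CTBP2 and EVI1 summits of unmodified cells lay 13 bp apart.

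In untreated inducible cells, 11 of 12 CTBP2 peaks of replicate 1 (91.7%, with 78.9% of the whole list) and 11 of 19 of replicate 2 (57.9%, with 78.4%) overlapped an EVI1 peak of either untreated library, a mean of 74.8% ± 23.9 (SD, n = 2). With dox the counts were 10 of 11 in replicate 1 (90.9%, with 92.1%) and 13 of 17 in replicate 2 (76.5%, with 86.6%), a mean of 83.7% ± 10.2 (SD, n = 2). The treatments thus differed by less than the replicates of untreated cells. The replicate 2 library called the more cluster peaks in either treatment and had the lower share. Seen from EVI1, a CTBP2 peak lay at 4 of 6 cluster peaks in unmodified cells (66.7%, with 43.0% of the whole EVI1 list). Without dox it lay at 14 of 16 (87.5%, with 88.3%) and 10 of 12 (83.3%, with 67.8%). With dox it lay at 11 of 16 (68.8%, with 44.4%) and 13 of 17 (76.5%, with 51.0%).

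The fate of the cluster with dox was first followed by whether a peak was still called. A call does not measure how much CTBP2 remained, and a site with a lower value still counts as kept. No library had dox without 4× PLDLS in the inducible experiment, so dox and the construct cannot be told apart. Of the 8 cluster sites called in both untreated CTBP2 libraries, all 8 were called in replicate 1 with dox and 7 in replicate 2, or 93.8% ± 8.84 (SD, n = 2). Over the genome 50.8% and 46.5% of 37227 such sites did. The site without a peak in dox replicate 2 was site 14. For EVI1, 10 of 11 sites had a peak in each dox library (90.9%), against 88.2% and 80.9% of 40449 over the genome, and site 1, at the left edge, was the one without.

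These shares depended on which sites counted as bound without dox, in the cluster and over the genome alike. Starting from all peaks of 1 untreated CTBP2 library, the mean kept share was 66.7% ± 11.8 of 12 sites for replicate 1 (SD over the 2 dox libraries) against 30.2% ± 2.18 over the genome, and 52.6% ± 7.44 of 19 sites for replicate 2 against 37.5% ± 0.729. Of the 23 cluster sites called in either library 45.7% ± 3.07 were kept, against 27.6% ± 0.568. Under each of these definitions the cluster share was the higher one, with 23 sites or fewer behind it. The definitions share sites, and the cluster was chosen by its CTBP2 peaks, so this is a description and no support. Of its untreated CTBP2 peaks, 9 of 12 in replicate 1 and 12 of 19 in replicate 2 exceeded the median fold enrichment of their list. The number of cluster peaks itself changed little. It was 15.5 ± 4.95 without dox (12 and 19) and 14 ± 4.24 with dox (11 and 17; SD, n = 2), a difference within the spread of replicates, while the whole CTBP2 lists went from 59379 ± 4035 to 24233 ± 502 peaks. For EVI1 it was 14 ± 2.83 (16 and 12) and 16.5 ± 0.707 (16 and 17), while the whole EVI1 lists went from 61802 ± 14726 to 50703 ± 4389 peaks.

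Where a site had a peak in all 4 libraries of a target, its fold enrichments were set side by side. They were not scaled for depth, and the labels give dox and untreated cells separate inputs. A lower or higher value is therefore not by itself a change in binding, and the share over the genome is given beside it. Of 7 such CTBP2 sites in the cluster, 6 had lower values in both dox libraries than in both untreated ones (72.5% of 14297 sites over the genome did) and 1 had higher values, a pattern found at 1.97% of sites. The site that was higher is the P2RY14 promoter. Its mean was 10.2 ± 10.1 without dox and 19.8 ± 0.174 with dox (SD, n = 2), a log2 difference of 1.43 with an SE of 1.24, so the difference is close to the error that the untreated replicates give it. Without untreated replicate 1, the log2 difference was 0.19, from 17.3 to a mean of 19.8. Without untreated replicate 2 it was 2.66. By position in the list, which the shorter dox lists also move, P2RY14 and the MED12L promoter stood higher with dox, as 6.89% of sites did. Site 16 stood lower, for which the share over the genome was not taken, and the groups overlapped at the others.

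At the other 6 CTBP2 sites, the log2 differences ran from −0.32 at the MED12L promoter to −1.19 at site 12. Site 35, upstream of P2RY12, went from 14.2 ± 2.29 to 8.49 ± 0.403, a log2 difference of −0.74 with an SE of 0.17. Site 17 went from 10.1 ± 0.0314 to 6.78 ± 0.782, with a log2 difference of −0.57 and an SE of 0.12. The median over the 7 cluster sites was −0.60 and over all 14297 sites −0.86. Site 12 was uneven with dox, at 2.85 and 8.47.

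EVI1 had 10 cluster sites with a peak in all 4 libraries. P2RY14 was again the 1 site that was higher in both dox libraries, with 13.3% of 31340 sites over the genome, at 7.29 ± 6.50 without dox and 26.5 ± 5.47 with dox (SD, n = 2). Its log2 difference was 2.21 with an SE of 1.09. Without untreated replicate 2 it was 1.14, with each dox library at least 1.90 times the remaining untreated one, and without untreated replicate 1 it was 3.28.

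Lower EVI1 values in both dox libraries were found at 3 cluster sites, with 35.5% over the genome. They were site 5, from 13 ± 0.526 to 10.4 ± 0.0699, site 12, from 10.1 ± 0.0245 to 4.49 ± 0.360, and site 14, from 24.7 ± 8.30 to 14.5 ± 1.93. At the other 6, among them the MED12L promoter and site 35, the groups overlapped. List position was higher with dox at sites 7, 17 and P2RY14, with 16.2% over the genome. It was lower at sites 5, 12 and 14, for which the share over the genome was not taken. The cluster median was −0.062 on the log2 scale and the genome median −0.23.

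**Figure D4:**
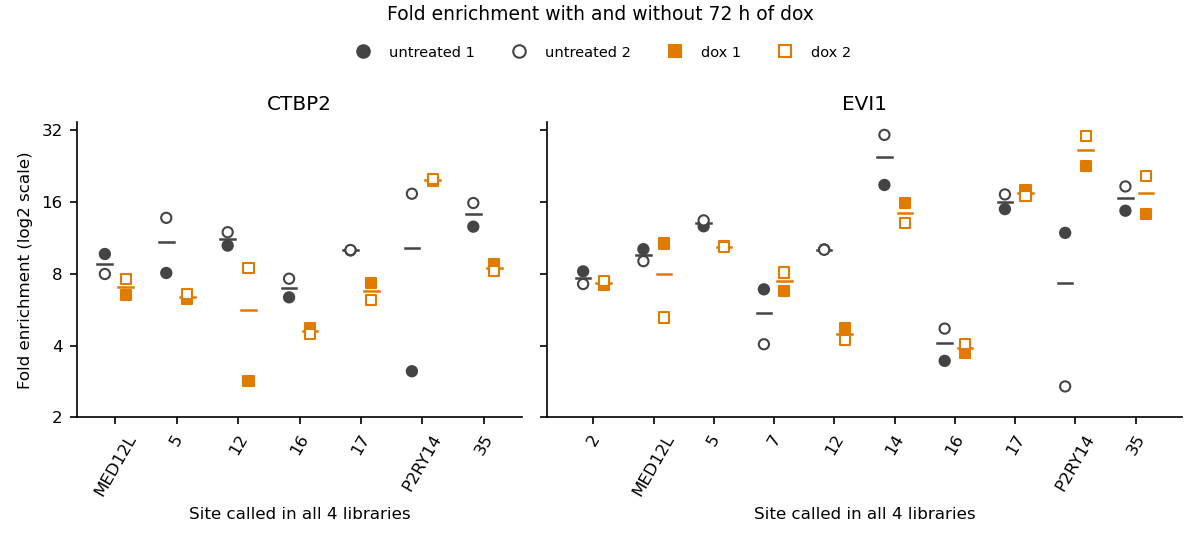
Fold enrichment on a log2 axis in the 2 untreated and 2 dox libraries of the inducible line at the cluster sites called in all 4 libraries of a target, 7 for CTBP2 and 10 for EVI1. Points are single libraries (filled for replicate 1, open for replicate 2) and bars their means, and P2RY14 is the site where both dox values lie above both untreated values for both targets, next to the widest gap between untreated replicates.

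Genes related to the members were read from lists. Of 13 other P2Y or related receptor genes, CTBP2 peaks lay within 1 kb of a 5′ end of 4 in unmodified MUTZ3 (P2RY1, P2RY6, P2RY11 and PTAFR), where 22.9% of all genes had one. The count was 6 and 7 in untreated inducible cells, with 68.4% and 60.9% of all genes, and 5 and 6 with dox, with 41.9% and 34.4%. EVI1 peaks lay at the same 4 genes in unmodified cells (31.6% of all genes), at 7 and 6 of the list without dox (63.7% and 69.8%) and at 7 and 7 with dox (65.2% and 61.8%). Of the 5 genes with a CTBP2 peak in all 4 inducible libraries, P2RY1, P2RY6, P2RY8 and P2RY11 had lower values in both dox libraries. Of all merged CTBP2 sites called in the 4 libraries, at promoters or not, 72.5% did. A gene's value is its strongest peak within 1 kb of a 5′ end, which need not be the same peak in each library. At P2RY6, a UDP receptor, CTBP2 was 17.1 and 17 without dox and 5.78 and 6.58 with dox. At PTAFR the groups overlapped, with 14.8 and 9.42 without dox and 7.89 and 9.97 with dox. Of 6 genes of the Mediator kinase module, none had a CTBP2 peak in unmodified MUTZ3, all 6 had in both untreated libraries, and 5 and 4 had with dox. For EVI1 it was 4 in unmodified cells, 5 and 6 without dox, and 6 in both dox libraries, beside the same shares of all genes as above.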

How the data were processed

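ChIP-seq peak lists for EVI1 and CTBP2 were used as deposited. The authors aligned reads to hg19, used MACS2 with default settings and an input to call the peaks of every library on its own, and did not pool replicates. The submitters' processing notes name Bowtie 1.1.1, MACS2 2.1.2, bcl2fastq 1.8.4 and deepTools 3.5.1. The deposited fold enrichment is a ratio of signal to local background, the −log10 p and −log10 q values are deposited as MACS2 gave them for the summit, and the deposited display score was not used.

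Members, gene lists and motifs were chosen with earlier results of these data known. Peaks of all 13 lists that overlapped the region were merged into sites by 1 bp or more, and where a list had several peaks in a site the strongest stood for it. Sites within 1 kb of an annotated 5′ end of a member and the 5 other sites called in the most lists were named, with ties broken by the fold enrichment in CTBP2 untreated replicate 1, by which site 14 came before site 5. Genes followed GENCODE release 44 lifted to hg19. Values are mean ± SD over libraries, and log2 differences are between mean log2 fold enrichments. Overlap and merging were tested on simulated lists and against bedtools 2.31.1. Python 3.11.15 was used with numpy 2.4.6, pandas 2.3.3, pysam 0.24.0, samtools 1.23.1 and matplotlib 3.10.9. Alternatives covered peak thresholds, flanks, overlap rules, equal list sizes, ranks by −log10 p, libraries left out and replicate pairing.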

Additional observations from a re-analysis of the deposited data

How the results depend on the processing

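Of 64 alternative values, 44 lay within 1 SD of the reported value (or, for the position in the unmodified list, its interval), 17 lay outside and 3 changed sign. These SDs come from 2 libraries and are unequal. In percentage points they were 0 for the EVI1 share kept, where any change counted as outside, and 23.9 for overlap with EVI1. For the mean P2RY14 position in the untreated CTBP2 libraries the SD was 66.6, so the counts say little about stability. The share of cluster CTBP2 sites kept with dox, 93.8%, was 64.3% with a minimum fold enrichment of 5, 45.7% for sites called in either untreated library, 83.3% with lists of equal size and 66.4% with the replicate block, in which each dox library was set against the untreated library of its number. Leaving out single libraries gave 52.6% to 100%, the lowest without untreated replicate 1 and 66.7% without untreated replicate 2. The EVI1 share, 90.9%, was 87.5% with a −log10 q of at least 5 and with lists of equal size, 75% with a minimum fold enrichment of 5, 100% with no flank, 73.5% for sites called in either library, 79.2% with the replicate block and 78.1% to 90.9% with libraries left out. The log2 ratio of CTBP2 peak numbers, −0.15, turned to 0.58 with lists of equal size and ranged from −0.49 to 0.22 with libraries left out, being positive without untreated replicate 2 (0.22) and without dox replicate 1 (0.13). That of EVI1, 0.24, ranged from 0.04 without untreated replicate 2 to 0.46 without untreated replicate 1. The share of untreated CTBP2 peaks that overlap EVI1, 74.8%, was 36.6% against the EVI1 list of unmodified cells, 66.9% with the replicate block and 57.9% (without CTBP2 untreated replicate 1) to 91.7% (without replicate 2) with libraries left out. The P2RY14 position in unmodified cells, 0.992%, was 0.784% when ranked by −log10 p. The causes were not tested. Replicates shared only a number, and the labels do not say whether numbers match between treatments or targets. Deviations of same-numbered libraries from their group means had a correlation of 0.21 over 14297 CTBP2 sites and −0.24 over 31340 EVI1 sites, and with crossed EVI1 numbers, an alternative chosen after seeing the data, 82.3% of EVI1 sites were kept. With no read counts, neither a missing peak nor a rank shows whether depth limited it.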
